A study of Mus musculus with 12 samples.

Results

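The genes described here code for the eukaryotic translation initiation factors (eIFs) and for the 3 inhibitor proteins that bind the cap-binding factor eIF4E. They are the rows of the expression table whose symbol starts with Eif, after leaving out the 4 eIF2 kinases (Eif2ak genes), which are enzymes acting on initiation and not factors. Of 51 such rows, 49 reached 1 FPKM in at least 3 of the 12 libraries and were kept, out of 24346 genes in the table and 10311 that passed the same filter. FPKM is the number of sequenced fragments scaled to the length of the transcript and to the mapped fragments of the library. Eif4e1b was at 0 in every library and Eif3j1 was at 0.141 to 0.156 FPKM, so both were left out. By the number in the name the members are 5 Eif1, 11 Eif2, 13 Eif3, 12 Eif4, 4 Eif5 genes and Eif6, with the 3 Eif4ebp genes counted apart as inhibitors. Of the 49, 48 were at or above 1 FPKM in all 12 libraries, and Eif4ebp2 was so in 5 libraries.

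Translation of most messenger RNAs starts when eIF2, loaded with GTP, carries the initiator tRNA to the small ribosomal subunit together with eIF1, eIF1A, eIF3 and eIF5. The eIF4 factors bind the cap at the start of the message, unwind it and bring the loaded subunit to it, which then scans for a start codon. Unfolded protein in the endoplasmic reticulum (ER) activates the kinase Eif2ak3 (PERK), which phosphorylates the alpha subunit of eIF2, blocks the recharging of eIF2 by eIF2B and so lowers initiation while messages such as Atf4 are still translated.

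The cells were bone-marrow-derived macrophages of WT mice, grown from marrow in M-CSF, a macrophage growth factor, over 7 days in medium with 10% serum. The 4 groups, with 3 libraries each, were tunicamycin plus LPS, tunicamycin alone, LPS alone, and untreated control. Tunicamycin, an inhibitor of N-linked protein glycosylation that provokes ER stress, was used at 5 ug/ml and given 3 h ahead of lipopolysaccharide (LPS), the bacterial ligand of TLR4, which was used at 1 ng/ml for 3 h. The strain, the time in tunicamycin alone and whether replicates were separate animals or cultures are not stated in the labels, so the p-values measure only the spread between these libraries, which may be technical. A difference in time in tunicamycin therefore cannot be told apart from LPS, in tunicamycin plus LPS against tunicamycin or in the interaction.

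Summed FPKM ran from 561108 to 685010 per library, and FPKM do not show the read depth. Libraries of a group correlated at 0.9726 to 0.9857 across genes and those of different groups at 0.8887 to 0.9515. Control replicate 2 and tunicamycin plus LPS replicate 3 stood apart from their groups on the third and the next principal component (6.85% and 4.02% of variance). On the latter the tunicamycin plus LPS libraries scored -20.52, -6.561 and 23.28, so replicate 1 lay far out on the other side. All 9 macrophage markers in the table passed the filter, and their summed level was 15500 to 24400 FPKM with tunicamycin plus LPS, 18700 to 22300 with tunicamycin, 19000 to 24000 with LPS and 14600 to 19300 in control cells. Of the 9, 1 was called higher and 3 lower with tunicamycin than in control cells, where 17.9% and 16.6% of all genes tested were. With tunicamycin plus LPS against LPS none was higher and 3 were lower, where 13.8% and 15.1% were. With LPS 1 was higher and 1 lower against control (10.5% and 7.86% of all genes). The 5 neutrophil markers summed to 15.6 to 30.1 FPKM with tunicamycin plus LPS, 12.0 to 23.6 with tunicamycin, 182 to 308 with LPS and 83.6 to 121 in control cells. The 6 stromal markers summed to 16.5 to 44.5 FPKM with tunicamycin plus LPS, 19.9 to 38.3 with tunicamycin, 8.17 to 14.1 with LPS and 7.97 to 10.1 in control cells. The 4 dendritic markers summed to 1.58 to 4.59 FPKM with tunicamycin plus LPS, 0.221 to 0.709 with tunicamycin, 2.75 to 7.2 with LPS and 0 to 0.494 in control cells, and Ccr7 among them was called higher with LPS both with and without tunicamycin. The lists for T and NK, B and plasma, erythroid and mast cells summed to at most 3.12 FPKM in any library. The part of these shifts in the results was not tested, and Ncr1, Ms4a1 and Cpa3, which mark other blood cells, were at 0 in all 12 libraries. The treatments showed in their textbook responders. The ER chaperone Hspa5 was log2 3.49 higher with tunicamycin than in control cells, and the cytokine Tnf was log2 7.59 higher with LPS.

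Initiation factor messages were abundant in these macrophages, and their total in FPKM was larger with either agent and largest with both. Summed over the 49 genes, the level was 6169 to 6244 FPKM with tunicamycin plus LPS, 5307 to 5412 with tunicamycin, 5248 to 5556 with LPS and 4789 to 5097 in control cells. As a share of all FPKM this was 0.937% to 1.03% with tunicamycin plus LPS, 0.943% to 0.964% with tunicamycin, 0.788% to 0.811% with LPS and 0.794% to 0.799% in control cells. On this scale the LPS and control groups overlapped, as did tunicamycin plus LPS and tunicamycin, so the order above holds for summed FPKM only. The median member stood at 66.3 FPKM in control cells, against 10.2 FPKM for all genes tested. The most abundant member was Eif5a, at 1097 ± 51.9 FPKM in control cells (SD, n = 3), followed by the helicase gene Eif4a1 at 343 ± 6.37 and Eif1 at 320.4 ± 16.6 FPKM. The least abundant were Eif4ebp2, at 1.34 ± 1.26 FPKM, and Eif5a2, at 3.22 ± 1.05 FPKM. The coefficient of variation over the 12 libraries ran from 9.15% to 96.7% with a median of 17.2%.

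Tunicamycin moved the members in both directions. Against control cells, 15 members were higher and 12 lower with tunicamycin, and 22 did not pass (limma on log2(FPKM + 1), adjusted p under 0.05 over all 10311 genes). That is 55.1% of members, where 34.5% of all genes tested passed, 17.9% higher and 16.6% lower. Against LPS alone, 14 members were higher and 3 lower with tunicamycin plus LPS, 34.7% of members where 28.9% of all genes passed, 13.8% higher and 15.1% lower. LPS moved fewer. Against tunicamycin alone, 13 members were higher and Eif2b1 was lower with tunicamycin plus LPS, 28.6% of members where 15.7% of all genes passed, 8.69% higher and 7.00% lower. Against control cells, 8 members were higher and Eif4enif1 was lower with LPS, 18.4% of members, where 18.4% of all genes passed, 10.5% higher and 7.86% lower. The median member changed by log2 0.15 with tunicamycin plus LPS against LPS, 0.06 with tunicamycin against control, 0.17 with tunicamycin plus LPS against tunicamycin and 0.11 with LPS against control, where the medians over all genes tested were 0.00, 0.03, -0.01 and 0.00 in the same order. Counted by libraries that did not overlap, 24 members (49% of them, where 40.3% of all genes tested did not overlap), 33 (67.3%, where 48.2% did not), 26 (53.1%, where 31.7% did not) and 17 (34.7%, where 33.7% did not) separated in that order of comparisons. Under quantile normalization, which forces all libraries to the same spread of values, the initiation factor genes split as 16 higher and 3 lower, 18 higher and 8 lower, 2 higher and 2 lower, and 2 higher and 3 lower in the same order of comparisons. Without tunicamycin replicate 3, 7 initiation factor genes were lower with tunicamycin than in control cells.

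**Figure D1:**
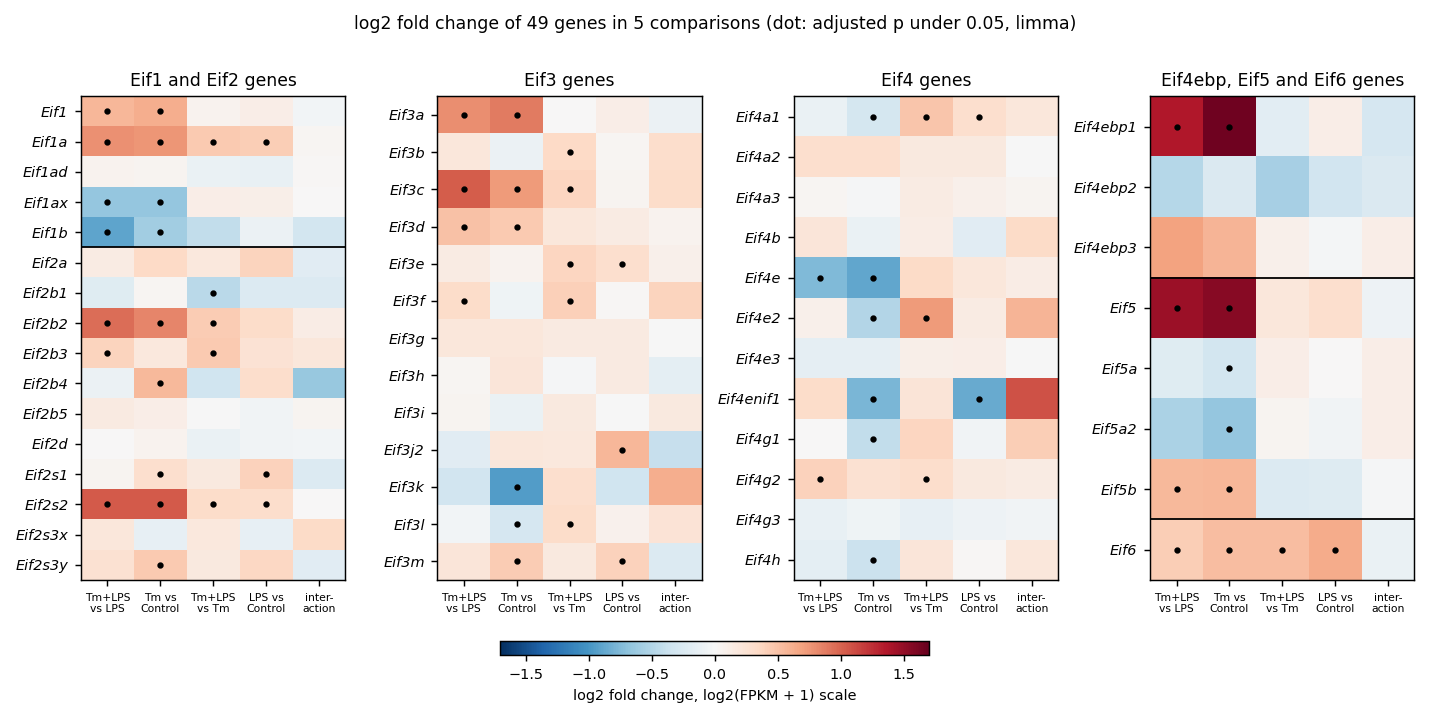
log2 fold change of the 49 members (rows, in panels by factor number) in the 5 comparisons (columns, treated over its reference), on the log2(FPKM + 1) scale, with red for higher and blue for lower and a dot where the adjusted p was under 0.05. The columns of tunicamycin with and without LPS are alike for Eif5, Eif4ebp1, Eif2s2 and Eif3c, the 6 Eif4 genes that fell with tunicamycin carry dots in the second column, and the interaction column holds no dot.

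Among the factors that scan for and accept a start codon, eIF1, eIF1A, eIF5 and eIF5B, the paralogs within the Eif1 genes moved apart. Of the 5 Eif1 genes 2 were higher and 2 lower with tunicamycin than in control cells, where 17.9% of all genes tested were higher and 16.6% lower. Eif5 and Eif5b were both higher. Eif5 (chr12:111538016-111546752, plus strand in GENCODE M21 on mm10) codes for the protein that makes eIF2 hydrolyse its GTP when the start codon is met. Its levels were 242, 243 and 220.1 FPKM with tunicamycin plus LPS and 199, 206 and 210.3 FPKM with tunicamycin. Eif5 was at 77.5, 78.9 and 101 FPKM with LPS and 70.7, 70.4 and 68.2 FPKM in control cells. Every library with tunicamycin lay above every library without it. The log2 fold change was 1.54 ± 0.10 (SE, adjusted p = 8.7e-09) for tunicamycin against control, 2.92-fold, and 1.45 ± 0.10 (SE, adjusted p = 2.73e-08) for tunicamycin plus LPS against LPS. Eif5b, whose product joins the large subunit, was low throughout, at 14.0 ± 1.13 FPKM with tunicamycin plus LPS, 16.7 ± 1.08 with tunicamycin, 9.25 ± 0.351 with LPS and 10.9 ± 0.507 in control cells (SD, n = 3). It was log2 0.57 ± 0.14 (SE, adjusted p = 0.00532) higher with tunicamycin than in control cells.

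Eif1, whose product keeps the scanning complex from stopping at wrong codons, measured 640.4, 429.5 and 489 FPKM with tunicamycin plus LPS and 426, 527 and 527 FPKM with tunicamycin. Eif1 was at 332, 326 and 381 FPKM with LPS and 306, 339 and 316 FPKM in control cells. The groups with tunicamycin did not overlap those without it. It was higher by log2 0.62 ± 0.13 (SE, adjusted p = 0.00124) with tunicamycin than in control cells and by 0.57 ± 0.13 (SE, adjusted p = 0.00308) with tunicamycin plus LPS than with LPS. Its paralog Eif1b went the other way, at 30.3, 16.2 and 26.6 FPKM with tunicamycin plus LPS and 28.1, 33.4 and 34.0 FPKM with tunicamycin. Eif1b was at 46.4, 44.4 and 43.8 FPKM with LPS and 47.8, 51.6 and 45.7 FPKM in control cells. All 6 libraries with tunicamycin were below all 6 without it. The fall was log2 -0.59 ± 0.17 (SE, adjusted p = 0.0134) with tunicamycin against control and -0.90 ± 0.17 (SE, adjusted p = 0.000922) with tunicamycin plus LPS against LPS. Without tunicamycin replicate 1 the call against control was lost, at an adjusted p of 0.0581. As a share of Eif1 plus Eif1b, Eif1b was 3.64% to 5.15% with tunicamycin plus LPS, 5.96% to 6.18% with tunicamycin, 10.3% to 12.3% with LPS and 12.6% to 13.5% in control cells. The share was 7.07 percentage points lower with tunicamycin than without it (two-sided exact permutation test within the groups with and without LPS, p = 0.005, the smallest this design allows, adjusted p = 0.01 over 8 ratio tests), and 1.61 points lower with LPS than without it (exact p = 0.005, adjusted p = 0.01).

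The product of Eif1a and Eif1ax is eIF1A, which works beside eIF1 in start codon choice. Eif1a, on chromosome 18, stood at 146, 175 and 142 FPKM with tunicamycin plus LPS and 106, 117 and 114 FPKM with tunicamycin. Eif1a was at 86.2, 88.3 and 91.9 FPKM with LPS and 64.7, 65.6 and 68.5 FPKM in control cells. The 4 groups did not overlap, with tunicamycin plus LPS highest and control lowest. Eif1a passed in all 4 pairwise comparisons, at log2 0.78 ± 0.10 (SE, adjusted p = 1.68e-05) for tunicamycin plus LPS against LPS, 0.75 ± 0.10 (SE, adjusted p = 1.82e-05) for tunicamycin against control, 0.45 ± 0.10 (SE, adjusted p = 0.00432) for tunicamycin plus LPS against tunicamycin and 0.42 ± 0.10 (SE, adjusted p = 0.00553) for LPS against control. Both calls with LPS were lost under quantile normalization (adjusted p = 0.138 and 0.15). Eif1ax, the X-linked copy, was at 76.8, 71.6 and 76.7 FPKM with tunicamycin plus LPS and 66.4, 69.0 and 73.4 FPKM with tunicamycin. Eif1ax was at 127, 114 and 116 FPKM with LPS and 106, 133 and 96.2 FPKM in control cells. All libraries with tunicamycin were lower than all without it, by log2 -0.66 ± 0.11 (SE, adjusted p = 0.000245) against control and -0.65 ± 0.11 (SE, adjusted p = 0.000372) against LPS. The ratio of Eif1a to Eif1ax was 2.06 ± 0.327 with tunicamycin plus LPS, 1.62 ± 0.0747 with tunicamycin, 0.751 ± 0.0634 with LPS and 0.606 ± 0.109 in control cells (SD, n = 3), so the order of the pair turned over; this pair was chosen after its values were seen. Members of such pairs share much of their sequence, and the labels do not say how reads that match both copies were shared out, so their separate levels are uncertain. Eif1ad, a gene with an eIF1A domain, passed in no comparison.

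**Figure D2:**
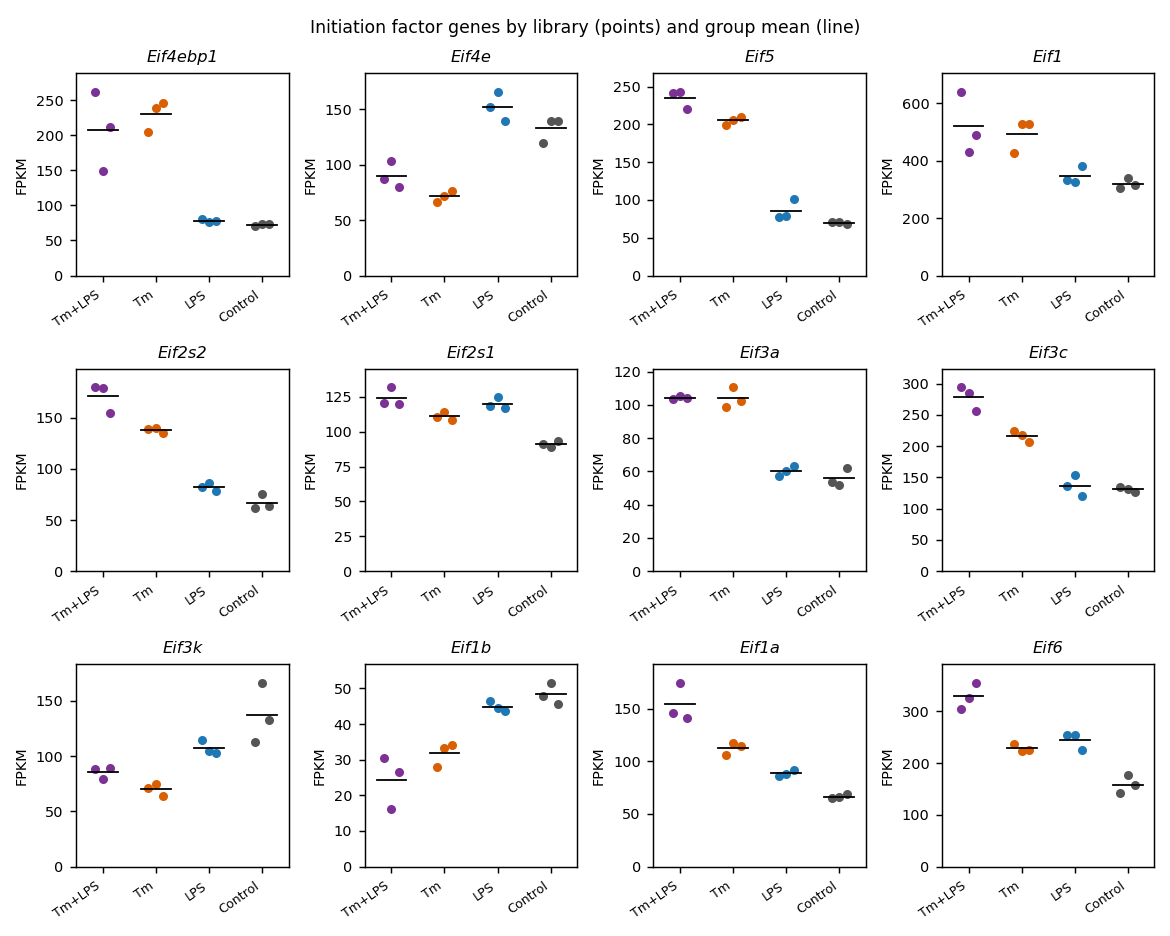
FPKM of 12 of the members the results turn on (a panel each, y axis from 0), with a point for each library and a line for the group mean, in the order tunicamycin plus LPS, tunicamycin, LPS and control. Eif5 and Eif4ebp1 lie high in both groups with tunicamycin, Eif4e and Eif1b lie low in them, and Eif6 is lowest in control.

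Among the subunit genes of eIF2 and of its recycling factor eIF2B, 5 of 9 were higher with tunicamycin than in control cells and none was lower, where 17.9% of all genes tested were higher and 16.6% lower. The beta subunit gene Eif2s2 (chr2:154871410-154892935, minus strand) led them, at 180.1, 179.7 and 155 FPKM with tunicamycin plus LPS and 139, 140.3 and 136 FPKM with tunicamycin. Eif2s2 was at 82.4, 86.5 and 78.3 FPKM with LPS and 61.3, 75.7 and 63.5 FPKM in control cells. Its groups did not overlap, and it passed in all 4 pairwise comparisons. It was log2 1.04 ± 0.10 (SE, adjusted p = 7.41e-07) higher with tunicamycin than in control cells, 1.05 ± 0.10 (SE, adjusted p = 1.07e-06) with tunicamycin plus LPS than with LPS, 0.31 ± 0.10 (SE, adjusted p = 0.0485) with tunicamycin plus LPS than with tunicamycin, and 0.30 ± 0.10 (SE, adjusted p = 0.0449) with LPS than in control cells. The Eif2s2 call against tunicamycin was lost in 10 of the alternatives tried. Among them were quantile normalization and leaving out any tunicamycin library or tunicamycin plus LPS replicate 1 or 2 (adjusted p = 0.1 to 0.136 for the libraries). The Eif2s2 call with LPS against control was lost in 9, among them quantile normalization and leaving out any LPS library or control replicate 1 or 3 (0.0583 to 0.173 for the libraries). Eif2s1, which codes for the alpha subunit that PERK phosphorylates, read 121, 132 and 120.0 FPKM with tunicamycin plus LPS and 111, 114 and 108 FPKM with tunicamycin. Eif2s1 was at 118, 125 and 117 FPKM with LPS and 91.2, 88.8 and 93.6 FPKM in control cells. The control libraries were the lowest and the other groups lay close together. Eif2s1 was log2 0.39 ± 0.08 (SE, adjusted p = 0.00307) higher with LPS than in control cells and 0.28 ± 0.08 (SE, adjusted p = 0.0161) higher with tunicamycin, and it was not called with tunicamycin plus LPS against LPS (adjusted p = 0.703) or against tunicamycin (adjusted p = 0.232). The Eif2s1 call with tunicamycin was lost without tunicamycin replicate 2 (adjusted p = 0.0644) and without the trend in the variance model (0.0568), and that with LPS under quantile normalization (0.115). The ratio of beta to alpha subunit messages was 1.38 ± 0.10 with tunicamycin plus LPS, 1.25 ± 0.0151 with tunicamycin, 0.687 ± 0.0143 with LPS and 0.734 ± 0.102 in control cells (SD, n = 3). This ratio was not among those tested, and it draws on the same Eif2s2 values. Eif2s3x, the gamma subunit gene on the X chromosome, passed in no comparison, and its Y-linked copy Eif2s3y was log2 0.44 ± 0.14 (SE, adjusted p = 0.0208) higher with tunicamycin than in control cells, a call lost without control replicate 2 or 3 or tunicamycin replicate 3 (adjusted p up to 0.0959); reads of these near-identical copies could be split between them.

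Of the 5 eIF2B genes, Eif2b2 and Eif2b4 were called higher with tunicamycin than in control cells, and the other 3 were not called. Eif2b2 measured 64.9, 52.7 and 60.8 FPKM with tunicamycin plus LPS and 45.6, 42.6 and 42.6 FPKM with tunicamycin. Eif2b2 was at 29.8, 32.5 and 28.4 FPKM with LPS and 29.7, 20.4 and 23.2 FPKM in control cells. The tunicamycin groups lay above the others and did not overlap them, with log2 fold changes of 0.83 ± 0.14 (SE, adjusted p = 0.000179) against control and 0.95 ± 0.14 (SE, adjusted p = 6.4e-05) with tunicamycin plus LPS against LPS. Eif2b5, the catalytic epsilon subunit gene, was called in no comparison, at 49.3, 43.6 and 52.1 FPKM with tunicamycin plus LPS and 55.4, 49.6 and 41.8 FPKM with tunicamycin. Eif2b5 was at 45.6, 45.8 and 38.8 FPKM with LPS and 44.8, 46.5 and 44.1 FPKM in control cells. Its groups overlapped in every comparison, and the interval of its change with tunicamycin against control was log2 -0.15 to 0.36 (95%). Eif2b1, a regulatory subunit gene that helps eIF2B sense phosphorylated eIF2, stood at 21.4, 24.2 and 18.2 FPKM with tunicamycin plus LPS and 31.4, 27.1 and 30.1 FPKM with tunicamycin. Eif2b1 was at 22.8, 25.2 and 25.7 FPKM with LPS and 28.4, 28.5 and 29.6 FPKM in control cells. It was lower with tunicamycin plus LPS than with tunicamycin, by log2 -0.46 ± 0.13 (SE, adjusted p = 0.0212) with no overlap, a call lost without tunicamycin replicate 1 (adjusted p = 0.0806), without tunicamycin replicate 3 (0.0709) and without tunicamycin plus LPS replicate 3 (0.0909). Eif2b3 was log2 0.37 higher with tunicamycin plus LPS than with LPS and 0.44 higher than with tunicamycin, and Eif2b4 was 0.55 higher with tunicamycin than in control cells. The Eif2b3 call against LPS was lost without LPS replicate 1 or 3 or tunicamycin plus LPS replicate 2 or 3 (adjusted p = 0.0534 to 0.0888), and that against tunicamycin without tunicamycin replicate 1 or 2 or tunicamycin plus LPS replicate 3 (0.0535 to 0.0584). The mean level of the 5 eIF2B genes per mean level of Eif2s1, Eif2s2 and Eif2s3x was 0.369 ± 0.0323 with tunicamycin plus LPS, 0.41 ± 0.0213 with tunicamycin, 0.422 ± 0.00814 with LPS and 0.486 ± 0.0369 in control cells (SD, n = 3). It was lower with tunicamycin by log2 -0.22 (exact permutation test, p = 0.005, adjusted p = 0.01) and lower with LPS by log2 -0.18 (exact p = 0.015, adjusted p = 0.02). None of the eIF2B genes was called lower with tunicamycin against control, or with tunicamycin plus LPS against LPS. Eif2s2, in the denominator, averaged 138.3 FPKM with tunicamycin against 66.82 in control cells, and 171.7 with tunicamycin plus LPS against 82.4 with LPS. The ratio without Eif2s2 was not tested. Eif2a and Eif2d, which code for separate proteins that can deliver initiator tRNA without eIF2 and are not subunits of it, passed in no comparison.

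**Figure D3:**
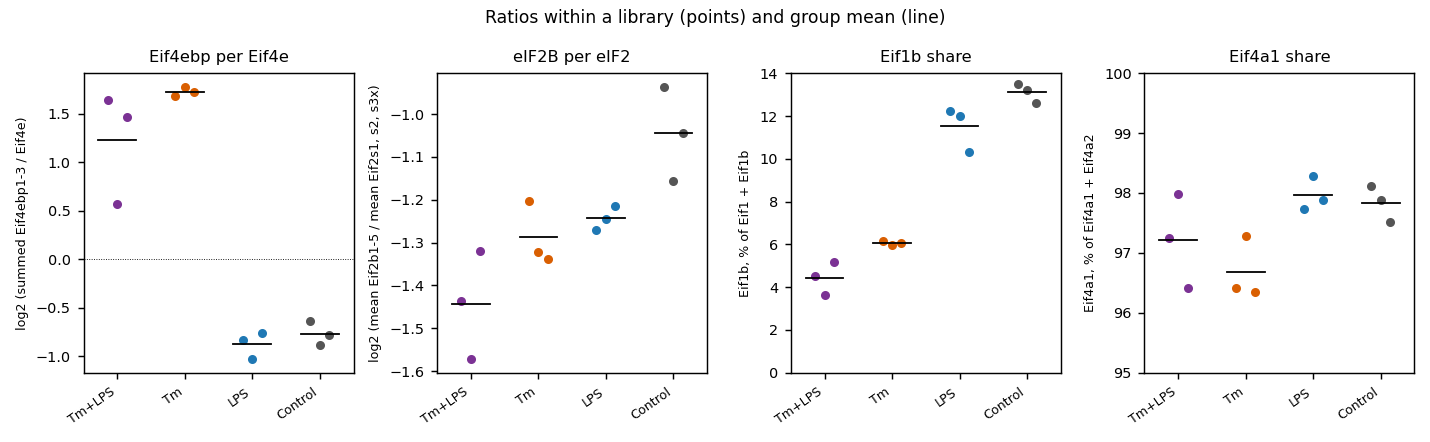
Ratios within a library for the 4 tested pairs, as log2 for Eif4ebp per Eif4e and eIF2B per eIF2 and as percent for the Eif1b and Eif4a1 shares (the axis of the Eif4a1 share does not start at 0), with a point for each library and a line for the group mean, in the order tunicamycin plus LPS, tunicamycin, LPS and control. Eif4ebp per Eif4e lies above 0 in the 6 libraries with tunicamycin and below 0 in the 6 without it, and the Eif1b share is lower with tunicamycin in the same division.

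The 13 genes of eIF3, the scaffold of many subunits that binds the small ribosomal subunit, were called in both directions with tunicamycin. Against control 4 were higher and 2 lower, where 17.9% of all genes tested were higher and 16.6% lower, so the share of lower members was near that of all genes. With tunicamycin plus LPS against LPS 4 were higher and none lower, where 13.8% of all genes were higher and 15.1% lower. Eif3c and Eif3a code for core subunits. Eif3c was at 294, 286 and 257 FPKM with tunicamycin plus LPS and 225, 218 and 206 FPKM with tunicamycin. Eif3c was at 136, 154 and 119.7 FPKM with LPS and 135, 132 and 126 FPKM in control cells. Libraries with tunicamycin lay above all those without it, and those with both agents above those with tunicamycin alone. Its log2 fold change was 0.72 ± 0.10 (SE, adjusted p = 3.04e-05) for tunicamycin against control, 1.03 ± 0.10 (SE, adjusted p = 9.81e-07) for tunicamycin plus LPS against LPS and 0.36 ± 0.10 (SE, adjusted p = 0.018) for tunicamycin plus LPS against tunicamycin. The last of these was lost under quantile normalization and without tunicamycin replicate 2 (adjusted p = 0.0546), tunicamycin replicate 3 (0.077) or tunicamycin plus LPS replicate 1 (0.0594). Eif3a was at 103, 105 and 104 FPKM with tunicamycin plus LPS and 99.0, 111 and 102 FPKM with tunicamycin. Eif3a was at 57.0, 60.0 and 63.4 FPKM with LPS and 53.9, 51.5 and 62.1 FPKM in control cells. The libraries with tunicamycin lay above those without it, by log2 0.89 ± 0.10 (SE, adjusted p = 3.49e-06) against control and 0.79 ± 0.10 (SE, adjusted p = 1.79e-05) against LPS. Eif3d, whose product can itself bind a cap, was log2 0.44 higher against control (adjusted p = 0.00112) and 0.50 higher against LPS (adjusted p = 0.000508).

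Other eIF3 genes fell or followed LPS. Eif3k, which codes for a subunit of the octamer at the core of eIF3, measured 88.1, 79.6 and 88.9 FPKM with tunicamycin plus LPS and 71.1, 74.8 and 64.2 FPKM with tunicamycin. Eif3k was at 114, 104 and 103 FPKM with LPS and 113, 166 and 133 FPKM in control cells. Tunicamycin libraries were below control libraries without overlap, by log2 -0.94 ± 0.12 (SE, adjusted p = 2.09e-05), while with tunicamycin plus LPS against LPS the change was -0.33 ± 0.12 (SE, adjusted p = 0.0577) and was not called. Control replicate 2, the highest of the 12 values, is the library that stood apart within its group. Eif3l, which codes for its partner in the octamer, was lower with tunicamycin than in control cells, by log2 -0.29 ± 0.09 (SE, adjusted p = 0.0196), a call lost under quantile normalization and without control replicate 1 or 2 or tunicamycin replicate 2 or 3 (adjusted p = 0.0596 to 0.0884 for the libraries). Eif3m, another octamer subunit gene, stood at 128, 157 and 152 FPKM with tunicamycin plus LPS and 127, 129.6 and 132 FPKM with tunicamycin. Eif3m was at 138, 126 and 115 FPKM with LPS and 90.3, 87.9 and 110.5 FPKM in control cells. All tunicamycin and all LPS libraries exceeded all control libraries, by log2 0.43 ± 0.11 (SE, adjusted p = 0.00603) with tunicamycin and 0.39 ± 0.11 (SE, adjusted p = 0.0181) with LPS. The Eif3m call with LPS was lost under quantile normalization and without control replicate 1 (adjusted p = 0.0741), control replicate 2 (0.0803) or LPS replicate 1 (0.0853). Eif3j2 was at 65.1, 54.9 and 54.5 FPKM with tunicamycin plus LPS and 52.1, 51.3 and 49.7 FPKM with tunicamycin. Eif3j2 was at 62.5, 65.7 and 72.1 FPKM with LPS and 42.4, 46.7 and 44.8 FPKM in control cells. LPS libraries exceeded control libraries by log2 0.57 ± 0.11 (SE, adjusted p = 0.000844), and with tunicamycin plus LPS against tunicamycin the difference was 0.18 ± 0.11 (SE, adjusted p = 0.285). Eif3j1, its near-identical copy, was almost unread, and how reads were divided between them is not known. Eif3e was higher with LPS than in control cells (log2 0.28, adjusted p = 0.0369) and higher with tunicamycin plus LPS than with tunicamycin (log2 0.37, adjusted p = 0.00999). Eif3b and Eif3f were also higher in the second of these, at log2 0.33 and 0.41, as was Eif3l at log2 0.31 (adjusted p = 0.029, with no overlap), and Eif3g, Eif3h and Eif3i passed in none. That call of Eif3l was lost under quantile normalization and without replicate 2 or 3 of either group (adjusted p = 0.0706 to 0.126). The Eif3e call against control was lost under quantile normalization and without control replicate 1 or 3 or LPS replicate 1 or 3 (adjusted p = 0.0945 to 0.121 for the libraries), and that against tunicamycin under quantile normalization and without tunicamycin replicate 2 (0.0556). The Eif3b call, for which the libraries overlapped, was lost in 10 of the alternatives tried. Among them were quantile normalization and leaving out replicate 2 or 3 of tunicamycin plus LPS or of tunicamycin (0.119 to 0.178 for the libraries). The Eif3f call was lost under quantile normalization.

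**Figure D4:**
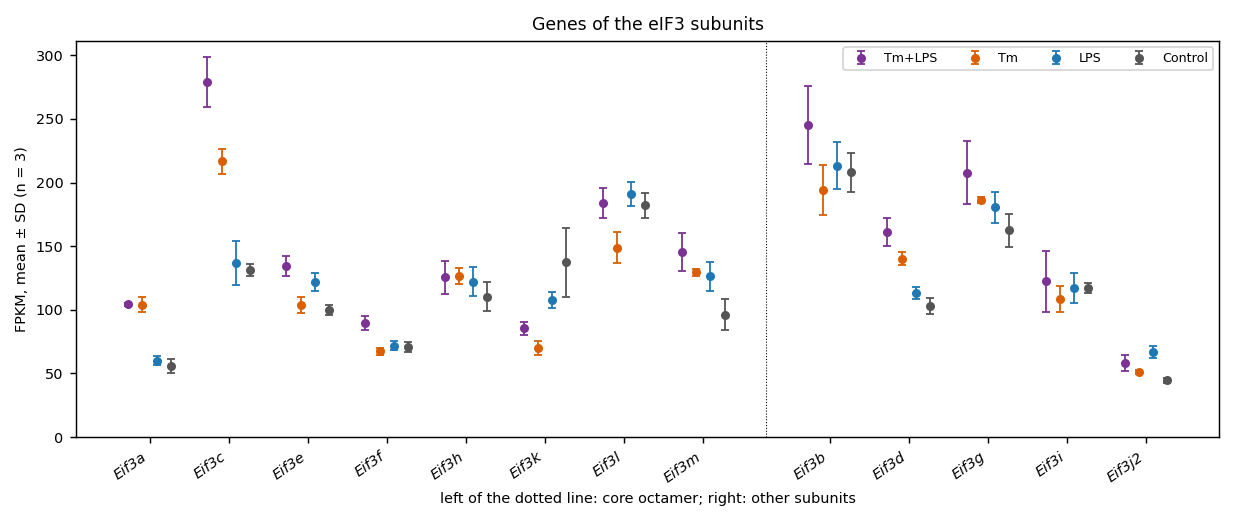
Mean FPKM with its SD (n = 3, y axis from 0) of the 13 Eif3 genes (x axis) in tunicamycin plus LPS, tunicamycin, LPS and control, with genes of the core octamer left of the dotted line and the other subunits right of it. Eif3a, Eif3c and Eif3d lie higher in both groups with tunicamycin, Eif3k lies lowest with tunicamycin and highest in control, and Eif3h and Eif3i differ little beside their SD.

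Several genes of the cap-binding group fell with tunicamycin alone and none rose. Of the 12 Eif4 genes, 6 were lower with tunicamycin than in control cells, Eif4e, Eif4enif1, Eif4e2, Eif4g1, Eif4h and Eif4a1, where 16.6% of all genes tested were lower. With tunicamycin plus LPS against LPS, Eif4e was called lower and Eif4g2 higher among the 12, where 28.9% of all genes tested were called in either direction, a larger share than among these genes. Eif4e (chr3:138526179-138559696, plus strand) codes for the protein that grips the cap, and its levels were 87.2, 103 and 79.9 FPKM with tunicamycin plus LPS and 66.7, 71.7 and 76.0 FPKM with tunicamycin. Eif4e was at 152, 166 and 139 FPKM with LPS and 119.6, 139.9 and 139 FPKM in control cells. The 6 libraries with tunicamycin lay below the 6 without it. Eif4e was lower by log2 -0.89 ± 0.11 (SE, adjusted p = 1.47e-05), or 1.85-fold, with tunicamycin than in control cells, and by -0.76 ± 0.11 (SE, adjusted p = 9.33e-05) with tunicamycin plus LPS than with LPS. Eif4g1, the scaffold that bridges the cap and the small subunit, stood at 31.6, 32.1 and 31.5 FPKM with tunicamycin plus LPS and 23.3, 26.3 and 23.5 FPKM with tunicamycin. Eif4g1 was at 26.5, 30.2 and 39.5 FPKM with LPS and 30.9, 36.6 and 31.4 FPKM in control cells. Tunicamycin libraries were the lowest and did not overlap control, at log2 -0.42 ± 0.14 (SE, adjusted p = 0.0277), while tunicamycin plus LPS and LPS overlapped. Eif4a1, the RNA helicase, was at 374, 428 and 360.5 FPKM with tunicamycin plus LPS and 287, 274 and 272 FPKM with tunicamycin. Eif4a1 was at 396, 473 and 392 FPKM with LPS and 336, 345 and 348 FPKM in control cells. Tunicamycin libraries were the lowest, control came next, and the groups with LPS overlapped above them. Eif4a1 was lower with tunicamycin than in control cells, log2 -0.30 ± 0.09 (SE, adjusted p = 0.016), higher with tunicamycin plus LPS than with tunicamycin, 0.48 ± 0.09 (SE, adjusted p = 0.00155), and higher with LPS than in control cells, 0.29 ± 0.09 (SE, adjusted p = 0.0358). Under quantile normalization the first of these turned to log2 0.030 (adjusted p = 0.846) and the other calls were lost. The Eif4a1 call with LPS against control was also lost without any control library or LPS replicate 2 (adjusted p = 0.0741 to 0.191). The share of Eif4a1 in Eif4a1 plus Eif4a2 stayed between 96.4% and 98.3% in the 12 libraries, 0.955 points lower with tunicamycin than without it (exact permutation p = 0.015, adjusted p = 0.02).

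Eif4e2 codes for a cap-binding relative of eIF4E that represses translation, and it measured 68.3, 52.1 and 66.7 FPKM with tunicamycin plus LPS and 40.0, 37.4 and 34.5 FPKM with tunicamycin. Eif4e2 was at 61.3, 62.1 and 51.7 FPKM with LPS and 55.7, 51.2 and 51.5 FPKM in control cells. Only the tunicamycin libraries stood apart, below all others. It was lower by log2 -0.49 ± 0.12 (SE, adjusted p = 0.00508) against control and higher by 0.72 ± 0.12 (SE, adjusted p = 0.000549) with tunicamycin plus LPS than with tunicamycin. Eif4enif1, whose product carries eIF4E to the nucleus and to P-bodies, read 4.95, 5.24 and 4.75 FPKM with tunicamycin plus LPS and 5.01, 4.85 and 2.83 FPKM with tunicamycin. Eif4enif1 was at 3.55, 3.94 and 3.99 FPKM with LPS and 7.82, 10.4 and 5.71 FPKM in control cells. Control libraries were the highest, and the gene was lower with tunicamycin, by log2 -0.77 ± 0.23 (SE, adjusted p = 0.0154), and with LPS, by -0.86 ± 0.23 (SE, adjusted p = 0.0136), than in control cells. The Eif4enif1 call with tunicamycin was lost without control replicate 2 (adjusted p = 0.0786) and without tunicamycin replicate 3 (0.0939), and that with LPS without control replicate 2 (0.0708). Eif4g2, which codes for an eIF4G relative that cannot bind eIF4E, was higher with tunicamycin plus LPS than with LPS, log2 0.39 (adjusted p = 0.00747). Eif4a2, Eif4a3, Eif4b, Eif4e3 and Eif4g3 passed in no comparison. Against control, the Eif4g1 call was lost without control replicate 2 (adjusted p = 0.108), tunicamycin replicate 1 (0.0806) or tunicamycin replicate 3 (0.0809), the Eif4a1 call without control replicate 3 (0.0509), tunicamycin replicate 2 (0.0525) or tunicamycin replicate 3 (0.0535), and the Eif4h call under quantile normalization.

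The most abundant inhibitor gene of eIF4E rose where Eif4e fell. Eif4ebp1 (chr8:27260329-27276674, plus strand) codes for 4E-BP1, which in its unphosphorylated form holds eIF4E away from eIF4G and is a target of the kinase mTORC1. It stood at 262, 149 and 212 FPKM with tunicamycin plus LPS and 204, 239.5 and 246 FPKM with tunicamycin. Eif4ebp1 was at 81.0, 76.1 and 77.7 FPKM with LPS and 71.1, 72.8 and 73.6 FPKM in control cells. All 6 libraries with tunicamycin exceeded all 6 without it. Eif4ebp1 was 3.13-fold higher with tunicamycin than in control cells, log2 1.65 ± 0.15 (SE, adjusted p = 3.26e-07), and log2 1.36 ± 0.15 (SE, adjusted p = 4.11e-06) higher with tunicamycin plus LPS than with LPS. The 3 values with both agents were spread more widely than those of any other group, and the difference from tunicamycin alone, log2 -0.18 ± 0.15 (SE, adjusted p = 0.467), was not called; under quantile normalization it was log2 -0.46 and passed (adjusted p = 0.0377). Ordered by level, Eif4ebp1 was 21st among the 49 members in control cells and 4th with tunicamycin. Eif4ebp2 was at 0, 0.342 and 0.281 FPKM with tunicamycin plus LPS, 1.01, 1.03 and 0.370 FPKM with tunicamycin, 0.505, 1.43 and 0.302 FPKM with LPS and 1.14, 0.190 and 2.68 FPKM in control cells, too low and too scattered to compare. Eif4ebp3 averaged 7.31 ± 2.85 FPKM with tunicamycin plus LPS, 6.63 ± 1.72 with tunicamycin, 3.94 ± 0.234 with LPS and 4.13 ± 1.20 in control cells (SD, n = 3) and passed in no comparison. Summed inhibitor messages per Eif4e message were 3.12, 1.49 and 2.76 with tunicamycin plus LPS, 3.21, 3.43 and 3.32 with tunicamycin, 0.561, 0.491 and 0.59 with LPS and 0.645, 0.541 and 0.581 in control cells. Inhibitor messages thus outnumbered Eif4e per length in each library with tunicamycin and in none without it. The ratio was log2 2.30 higher with tunicamycin than without it (exact permutation test, p = 0.005, adjusted p = 0.01) and log2 -0.31 with LPS against without it (exact p = 0.045, adjusted p = 0.0514), which missed the threshold. The 2 tunicamycin calls of Eif4ebp1 and of Eif4e held in each alternative tried. In bulk RNA, fewer cells of a type and less RNA per cell cannot be told apart, here or in the other results.

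Eif5a and Eif6 act outside cap recognition. Eif5a codes for the hypusine-bearing protein that helps ribosomes through difficult peptide bonds, and it measured 896, 988 and 978 FPKM with tunicamycin plus LPS and 905, 908 and 825 FPKM with tunicamycin. Eif5a was at 1106, 1151 and 1042 FPKM with LPS and 1040.0, 1142 and 1107 FPKM in control cells. Tunicamycin libraries lay below control libraries by log2 -0.32 ± 0.08 (SE, adjusted p = 0.00493), a call lost under quantile normalization, and with tunicamycin plus LPS against LPS the change was -0.20 ± 0.08 (SE, adjusted p = 0.0614). The hypusine enzyme genes Dhps and Dohh passed in no comparison. Eif5a2, its low paralog, was log2 -0.65 ± 0.24 (SE, adjusted p = 0.0457) with tunicamycin against control. That call was lost in 9 of the alternatives tried, among them leaving out any tunicamycin library or control replicate 1 or 3 (adjusted p = 0.0654 to 0.197). Eif6, whose product keeps the large ribosomal subunit from joining too early, stood at 305, 326 and 355 FPKM with tunicamycin plus LPS and 236, 223 and 226 FPKM with tunicamycin. Eif6 was at 255, 255 and 225 FPKM with LPS and 142, 177 and 157 FPKM in control cells. Control was lowest, tunicamycin plus LPS highest, and the tunicamycin and LPS groups overlapped between them. Eif6 passed in all 4 pairwise comparisons, by log2 0.42 ± 0.10 (SE, adjusted p = 0.0035) for tunicamycin plus LPS against LPS, 0.53 ± 0.10 (SE, adjusted p = 0.000432) for tunicamycin against control, 0.52 ± 0.10 (SE, adjusted p = 0.00114) for tunicamycin plus LPS against tunicamycin and 0.63 ± 0.10 (SE, adjusted p = 0.000129) for LPS against control. The third of these was lost under quantile normalization.

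Promoters of the members that fell with tunicamycin often held the E-box CACGTG, a palindrome bound by MYC, USF and TFE3 among other factors. The windows were RefSeq's, on GRCm38.p6, from 250 bases before to 50 bases after a start, and 38 of the 49 members had at least 1. A member with several windows was counted where any of them held the letters. Among the members lower with tunicamycin than in control cells, Eif5a had 6 windows, Eif4enif1 4, Eif4e2 3 and Eif4e 2. Each higher member with a window had 1, so the lower members had more places to hold the letters. This search was made after the values were seen and carries no test. The letters CACGTG were in 8 of the 12 members lower with tunicamycin than in control cells, in 1 of the 12 higher ones that had a window (Eif3a, where they lie after the start) and in 1 of the 14 others (Eif3f), against 7.15% of all 32851 promoters in the table and 8.09% of its 27025 genes. Median GC content of the windows was 63.5% for the lower members, 62.7% for the higher ones and 52.7% for all promoters. With tunicamycin plus LPS against LPS, the letters were in 2 of the 3 lower members (Eif1b and Eif4e). They were also in 2 of the 9 higher ones with a window (Eif3a and Eif3f) and in 6 of the 26 others with one. Among the 8, the calls of Eif3k and Eif4e against control held in every alternative tried. Those of Eif1b, Eif4a1, Eif4g1, Eif4h, Eif5a and Eif5a2 were each lost in at least 1. Of the lower members without the letters, Eif1ax and Eif4e2 held, and Eif3l and Eif4enif1 did not. The 250 bases before the second of the 2 listed starts of Eif4e are printed because they have the motif in 2 places and its gene had the strongest fall in the cap-binding group, and those of Eif5 because that gene rose and its window has none. The window at the other Eif4e start, which lies upstream, does not hold the letters, and of the 6 windows of Eif5a 3 hold them. Capitals mark CACGTG, sequences run 5′ to 3′ on the gene's strand, and positions in parentheses count from the start, negative before it.
Eif4e, chr3:138527018-138527267, plus strand: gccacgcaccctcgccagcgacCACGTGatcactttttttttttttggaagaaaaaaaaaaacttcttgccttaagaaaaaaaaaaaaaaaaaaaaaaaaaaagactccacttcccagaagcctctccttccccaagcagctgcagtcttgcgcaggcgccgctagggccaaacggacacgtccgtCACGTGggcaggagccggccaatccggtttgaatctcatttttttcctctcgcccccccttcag
Eif5, chr12:111537851-111538100, plus strand: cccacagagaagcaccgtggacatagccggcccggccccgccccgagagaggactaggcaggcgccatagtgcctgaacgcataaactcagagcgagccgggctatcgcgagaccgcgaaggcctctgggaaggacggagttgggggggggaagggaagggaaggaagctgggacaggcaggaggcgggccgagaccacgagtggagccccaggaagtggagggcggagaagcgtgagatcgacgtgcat

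The sites before the start in the other 7 lower members are shown with 12 bases on either side, so that the letters around the shared core can be compared.
Eif1b (-24), chr9:120492570-120492599, plus strand: cgtgcggacggtCACGTGgcggcggcgcgc
Eif3k (-44), chr7:28981915-28981944, minus strand: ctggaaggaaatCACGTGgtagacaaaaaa
Eif4a1 (-189), chr11:69672595-69672624, minus strand: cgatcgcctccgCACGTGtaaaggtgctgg
Eif4g1 (-54), chr16:20672661-20672690, plus strand: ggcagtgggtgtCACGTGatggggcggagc
Eif4h (-96), chr5:134639488-134639517, minus strand: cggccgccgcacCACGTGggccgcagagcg
Eif5a (-74), chr11:69921443-69921472, minus strand: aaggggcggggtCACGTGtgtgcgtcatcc
Eif5a (-178, another start), chr11:69920791-69920820, minus strand: gcgctgcgcggcCACGTGaggtgggggagg
Eif5a2 (-142), chr3:28781123-28781152, plus strand: actaatccgcagCACGTGgggttgccaggg
Eif5a2 (-117), chr3:28781148-28781177, plus strand: cagggcgagcttCACGTGacggggcgggac
Eif4g1 has another site 15 bases after its start, which is not printed, and the first Eif5a site also lies in a window of another start, at -185. The letters TGATGNAA, the core of the element bound by ATF4 with C/EBP proteins, were in 3.97% of all promoters and in that of Eif2s3x alone among the members. TGACGTCA, the cAMP response element, was in 1.79% of all promoters and the ER stress element (ERSE) in 0.119%, and neither was in any of the members' windows. Both strands were searched. Eif4ebp1, Eif1a and Eif6 were not in the promoter table.

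Tunicamycin moved 14 of the members in the same direction with and without LPS. These comparisons share no library. Of the 49, 11 were called higher in both, namely Eif1, Eif1a, Eif2b2, Eif2s2, Eif3a, Eif3c, Eif3d, Eif4ebp1, Eif5, Eif5b and Eif6, 3 were called lower in both, namely Eif1ax, Eif1b and Eif4e, and none was called in opposite directions. Over all genes tested 932 were higher in both, 1047 lower in both and 61 opposite, or 9.04% higher in both, 10.2% lower in both and 19.2% in the same direction. Across the 49 members the 2 sets of log2 fold changes had a Pearson's r of 0.863, against 0.661 over all genes tested, where genes are not independent replicates. Another 13 members passed with tunicamycin in the absence of LPS alone and 3 in its presence alone. The difference between the effects, tested as the interaction, passed for none of the 49 (limma, where 3.37% of all genes tested passed, 1.41% higher and 1.96% lower; 8 members had an unadjusted p under 0.05, where 14.8% of all genes did), so the longer list without LPS is not shown to be a different response.

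**Figure D5:**
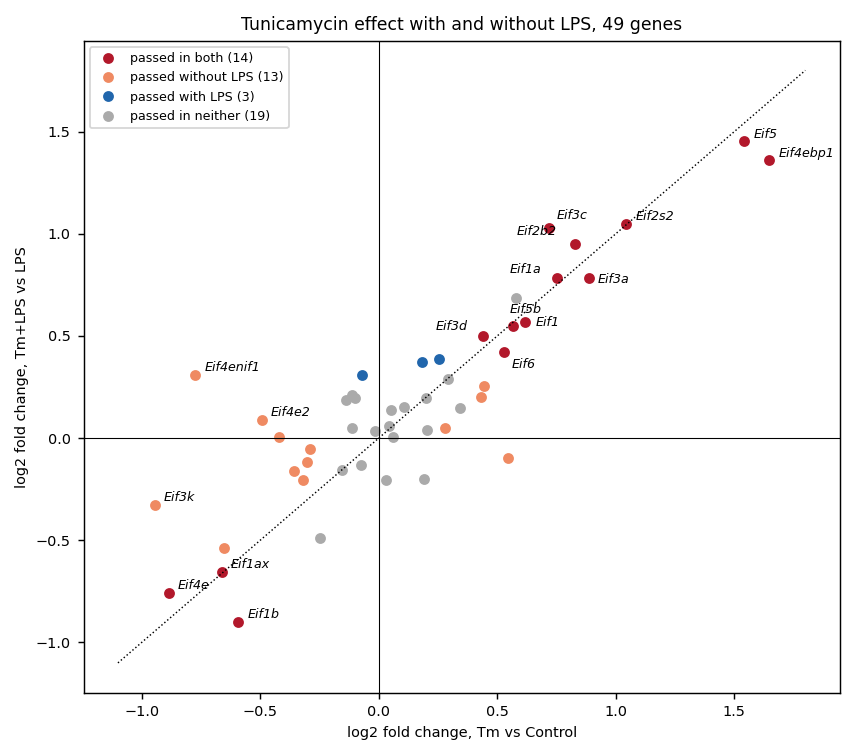
log2 fold change of the 49 members (points) for tunicamycin plus LPS against LPS (y axis) and tunicamycin against control (x axis), on the log2(FPKM + 1) scale, with colours for the comparisons in which a member passed and a dotted line of equal change. Members called in both lie near the line, and Eif4enif1, Eif4e2 and Eif3k lie above it.

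The interaction was closest to the threshold for Eif3k, at log2 0.62 ± 0.17 (SE, adjusted p = 0.0639), Eif2b4, at -0.64 ± 0.19 (SE, adjusted p = 0.0812), Eif4e2, at 0.58 ± 0.17 (SE, adjusted p = 0.0818), and Eif4enif1, at 1.08 ± 0.32 (SE, adjusted p = 0.0855). Eif3k passed it under quantile normalization and without control replicate 1 (adjusted p = 0.0398 and 0.0185), Eif4enif1 without control replicate 3 (0.0444) and Eif4e2 without tunicamycin plus LPS replicate 2 (0.0221). For the largest responders the interval of the interaction included 0, at log2 -0.39 to 0.21 for Eif5, -0.30 to 0.30 for Eif2s2 and -0.73 to 0.15 for Eif4ebp1 (95%).

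Changes with LPS in the members were small, and none reached 2-fold. Those against tunicamycin cannot be told apart from a difference in time in tunicamycin, which was not tested. Of 4 ER stress genes, 3 were also called higher in that comparison, where 8.69% of all genes tested were. Hspa5 averaged 13530 FPKM with tunicamycin plus LPS and 9594 with tunicamycin, and Xbp1 225.7 in both. Called higher with LPS both against control and, with tunicamycin, against tunicamycin were Eif1a, Eif2s2, Eif3e, Eif4a1 and Eif6, where 592 of all genes tested, 5.74%, were higher in both. No member was lower in both, where 2.91% of all genes were, and 8.65% of all genes moved in the same direction in both. The Pearson's r over the members was 0.391, against 0.706 over all genes tested. These counts depended on the scaling, and leaving out a library ended 2 to 4 of the 9 calls with LPS against control and 4 to 8 of the 14 with both agents against tunicamycin. The 8 initiation factor genes higher with LPS against control became 2 under quantile normalization, 4 without the trend in the variance model, 5 without control replicate 1 and 5 without control replicate 3, and under quantile normalization Eif3j2 and Eif6 were those left. The 13 higher with tunicamycin plus LPS against tunicamycin became 2 under quantile normalization, 7 without the trend, 5 without tunicamycin replicate 2 and 7 without tunicamycin replicate 3, and under quantile normalization Eif2b3 and Eif4e2 were those left.

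Genes that act on the initiation factors were counted from lists drawn up with earlier results of these data known. For these counts, the shares over all genes tested were 13.8% higher and 15.1% lower with tunicamycin plus LPS against LPS, 17.9% and 16.6% with tunicamycin against control, 8.69% and 7.00% with tunicamycin plus LPS against tunicamycin, and 10.5% and 7.86% with LPS against control. Of 11 genes for eIF2 kinases, the eIF2 phosphatase and their regulators, 3 were higher and none lower with tunicamycin than in control cells. Ppp1r15a (GADD34), which brings the phosphatase to eIF2, averaged 608 ± 40.1 FPKM with tunicamycin plus LPS, 274 ± 13.2 with tunicamycin, 88.0 ± 6.82 with LPS and 16.8 ± 1.29 in control cells (SD, n = 3), log2 3.96 ± 0.09 (SE, adjusted p = 2.23e-14) for tunicamycin against control and 2.32 ± 0.09 (SE, adjusted p = 9.69e-12) for LPS against control. Eif2ak3, the ER-resident eIF2 kinase PERK, was log2 1.41 ± 0.23 (SE, adjusted p = 0.000179) higher with tunicamycin than in control cells, and Dnajc3, which codes for an inhibitor of eIF2 kinases, 1.61 ± 0.17 (SE, adjusted p = 1.72e-06). With tunicamycin plus LPS against LPS 3 of the 11 were higher and 3 lower, among those lower Nck1 at log2 -0.57. Against tunicamycin 2 were higher and 1 lower with both agents, and 2 were higher with LPS than in control cells. The interaction was called for 2 of the 11, where 3.37% of all genes tested were called, at log2 -1.18 ± 0.13 (SE, adjusted p = 5.21e-05) for Ppp1r15a and -0.93 ± 0.24 (SE, adjusted p = 0.0433) for Nck1.

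Of 10 tested genes of Atf4 and its targets, 9 were higher and none lower with tunicamycin against control, and 9 with tunicamycin plus LPS against LPS. Atf4 itself was log2 2.73 ± 0.12 (SE, adjusted p = 4.96e-11) and 2.35 ± 0.12 (SE, adjusted p = 4.32e-10) higher in these comparisons, and Asns, the asparagine synthetase gene, 3.22 and 3.04. With LPS, 4 of the 10 were higher and 2 lower against control, and 2 higher and 2 lower with both agents against tunicamycin. Of 17 genes for mTORC1 and the control of eIF4E, 3 were higher and 1 lower with tunicamycin against control, 17.6% and 5.88% of them, where 17.9% and 16.6% of all genes were. Sesn2, which codes for an inhibitor of mTORC1 in leucine shortage, was log2 2.55 ± 0.15 (SE, adjusted p = 1.97e-09) higher, and its relative Sesn1 was -2.51 ± 0.20 (SE, adjusted p = 7.87e-08). With tunicamycin plus LPS against LPS 2 were higher and 1 lower, with tunicamycin plus LPS against tunicamycin 1 was higher and 1 lower, and with LPS against control 1 was higher and 4 lower. Among the 4 were the eIF4E kinase genes Mknk1, at log2 -0.49, and Mknk2, at -0.98.

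Of 13 tested helpers of scanning, reinitiation and poly(A) binding, 3 were higher and 3 lower with tunicamycin against control (17.9% and 16.6% of all genes tested), 2 and 3 with tunicamycin plus LPS against LPS, 2 and none with tunicamycin plus LPS against tunicamycin, and 1 and 1 with LPS against control. Denr, whose product forms a reinitiation factor with MCTS1, was higher in all 4, by log2 0.64 with tunicamycin plus LPS against LPS, 0.72 with tunicamycin against control, 0.87 with both agents against tunicamycin and 0.94 with LPS against control. Its partner Mcts1 was lower with tunicamycin, at log2 -0.67 against control and -0.54 with both agents against LPS. Bzw2, which codes for a mimic of eIF5, was also lower, at log2 -1.26 and -0.76 in the same comparisons, where Eif5 was higher. Of 12 tested elongation and release factor genes, 3 were higher and 2 lower with tunicamycin against control (17.9% and 16.6% of all genes tested), 4 and 1 with tunicamycin plus LPS against LPS, 3 and 1 with tunicamycin plus LPS against tunicamycin, and 2 and none with LPS against control. Eef2k, the kinase that slows elongation by acting on eEF2, was log2 1.43 ± 0.19 (SE, adjusted p = 2.8e-05) higher with tunicamycin than in control cells.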

How the data were processed

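RNA of 12 libraries was analysed from the table of FPKM that the authors deposited, with 1 value per gene symbol and library. Cufflinks 2.2.1 was run with TopHat2 2.0.13, Bowtie2 2.2.3 and SAMtools 0.1.19 on the build mm10, per the submitters' processing notes. Annotation, strandedness and scaling between libraries are not given in the sources used here. Reads of overlapping genes therefore cannot be told apart, and 26 of the 49 members overlap another gene in GENCODE M21, 13 of them on the opposite strand. Depth is unknown. Low values (below 0.3 FPKM) of control replicate 1 and any other library shared a common ratio (log2 tolerance 0.02) in 7.07% to 19% of genes, so counts were not recovered.

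Genes with at least 1 FPKM in at least 3 libraries (10311) were fitted on log2(FPKM + 1) with limma 3.58.1 in R 4.3.3 (lmFit, eBayes with trend), with 1 mean per group, 5 contrasts and Benjamini-Hochberg adjustment over all genes at 0.05. The fifth contrast, the interaction, subtracts the change with LPS in untreated cells from that in tunicamycin-treated cells, and equals the change with tunicamycin under LPS minus that without LPS. A pseudocount of 1 understates the change of low genes. In 4 ratios within a library the effects of tunicamycin and LPS were tested by exact permutation over 400 arrangements, adjusted over 8 tests. The method was tested on simulated data. Members and gene lists were chosen with earlier results of these data known. Values in every library are given for the 4 passing members with the largest change in each direction of each contrast and for 11 fixed genes; Eif2b2 was added after its values were seen. Replicate numbers are shared between groups, and deviations of same-numbered libraries from their group means correlated at -0.0391 to 0.0945. Alternatives were quantile normalization, scaling by median of ratios, the filter raised to 5 FPKM or dropped, a pseudocount of 0.1, limma without trend, the samples of the contrast alone, the replicate number as a block and leaving out each library. Lost calls named for a gene are mainly those under quantile normalization and when a library was left out. The other alternatives ended some of these calls too. No deposited column was left out. Promoters are RefSeq's on GRCm38.p6.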

Additional observations from a re-analysis of the deposited data

Results flagged for a closer look

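Eif2b4, an eIF2B subunit gene, lay lower with LPS in the presence of tunicamycin and higher with LPS in its absence. It averaged 25.3 ± 1.62 FPKM with tunicamycin plus LPS, 32.4 ± 3.17 with tunicamycin, 27.2 ± 3.16 with LPS and 21.9 ± 2.62 in control cells (SD, n = 3). The groups did not overlap in either LPS comparison, where 31.7% (with tunicamycin) and 33.7% (without it) of all genes tested did not. Neither comparison was called for Eif2b4 (limma, adjusted p = 0.0997 with tunicamycin and 0.15 without it). The interaction was log2 -0.64 and did not pass (limma, adjusted p = 0.0812).

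For Eif4enif1, which codes for the eIF4E transporter, tunicamycin libraries lay below control libraries without LPS and above LPS libraries with it. Of all genes tested, 48.2% and 40.3% did not overlap in these comparisons. The first was called for Eif4enif1 (limma, adjusted p = 0.0154) and the second was not (adjusted p = 0.343). Eif4enif1 averaged 4.98 ± 0.245 FPKM with tunicamycin plus LPS, 4.23 ± 1.22 with tunicamycin, 3.83 ± 0.242 with LPS and 7.97 ± 2.34 in control cells (SD, n = 3). The interaction was log2 1.08 and did not pass (limma, adjusted p = 0.0855), and without control replicate 3 it was log2 1.28 at an adjusted p of 0.0444.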

How the results depend on the processing

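Of 67 called member values, 35 kept their direction and side of the threshold in every alternative, 15 of 17 for tunicamycin plus LPS against LPS, 17 of 27 for tunicamycin against control, 1 of 14 for tunicamycin plus LPS against tunicamycin (Eif4e2) and 2 of 9 for LPS against control (Eif3j2 and Eif6). Eif4a1 with tunicamycin against control became log2 0.030 under quantile normalization, and Eif5a with LPS against control became log2 -0.23 (adjusted p = 0.0418); the cause was not tested. Among the genes named by rule, 19 gene and comparison pairs that had not passed changed sign in at least 1 alternative, in 34 of 554 alternative values of such pairs. Counts of initiation factor genes moved by over 1.5 times as follows. For tunicamycin plus LPS against tunicamycin, higher members numbered 2 under quantile normalization, 7 without the trend and 5 to 10 when a library was left out, against 13; lower members numbered 2 under quantile normalization, 0 with the samples of the contrast alone and 0 to 2 when a library was left out, against 1. For tunicamycin against control, lower members numbered 7 to 10 when a library was left out, against 12, the lowest without tunicamycin replicate 3. For LPS against control, higher members numbered 2 under quantile normalization, 4 without the trend and 5 to 6 when a library was left out, against 8; lower members numbered 3 under quantile normalization and 0 to 2 when a library was left out, against 1. For the interaction, higher members numbered 1 under quantile normalization and 0 to 1 when a library was left out, against 0. With LPS against without it, the ratio of inhibitor to Eif4e messages changed by log2 -0.16 (exact permutation p = 0.14) when medians replaced means, and by -0.41 to -0.14 (p up to 0.18) when a library was left out. With the replicate number as a block, 15 members were higher and 11 lower with tunicamycin against control, 15 and 3 with both agents against LPS, 11 and 1 with both agents against tunicamycin, and 8 and 1 with LPS against control. Deviations from the group means correlated at -0.0391 to 0.0945 in the 18 same-numbered pairs, and none was over 0.1. Of the 12 libraries, 10 correlated best with a library of their own number. Whether the numbers pair the samples was not tested. Precision is set by 3 libraries a group, and depth is unknown.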
